A study of Mus musculus with 5 samples.

Results

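The acetylation of lysine 14 of histone H3 (H3K14ac) across the genes of heterozygous control LSK cells was described from 2 CUT&Tag libraries, those labelled as Hbo1 heterozygous controls stained for H3K14ac, out of 5 libraries in the series and 4 that profile this mark. Both controls, called replicates 1 and 2, came from male C57BL/6 mice of the genotype Hbo1def/+; T/+, whose bone marrow LSK cells were isolated by FACS. The mice had received poly(I:C), an agent that raises the interferon response and thereby turns on Mx1-cre, so the controls carried the treatment, the Cre and a mutant Hbo1 allele, and no wild-type cells were compared. The antibody was abcam ab52946. The knockout libraries and the HBO1 library were not used. The labels do not say whether the replicates are separate mice or pools, and the tests below thus rest on the spread of these 2 libraries alone, which may be technical.

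H3K14ac is a mark of open and transcribed chromatin, and HBO1 (KAT7), which works in a complex with BRPF or JADE scaffold proteins, is a main enzyme that writes it. LSK cells lack the markers of mature blood lineages and carry Sca-1 (Ly6a) and Kit, and the fraction holds the blood stem cells and early progenitors of the marrow. In CUT&Tag an antibody guides the Tn5 transposase, which cuts and tags DNA near the mark, and Tn5 also has some reach into open DNA without the mark.

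Counts were available for 27179 genes over 3 regions per gene: the gene body, the 5 kb before the start (upstream) and the 5 kb after the end (downstream). Levels are given as CPM per kb, that is counts scaled to 1000000 for a library's total over the 3 region classes, divided by the length of the region in kb, and pairs of values are replicate 1 and replicate 2 in that order. Replicate 1 held 14811651 counts and replicate 2 held 12793434. No library with a control antibody was analysed here, so levels include whatever background the assay has. In cells in bulk, a mark on fewer cells and less of the mark per cell cannot be told apart, and PCR copies are not independent molecules.

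Examples of high and low upstream signal show how unlike the gene starts can be. The next 6 sequences are the 250 bases before the RefSeq start (GRCm38.p6), 5′ to 3′ on the gene's strand, with each CpG in capitals. The first 3 lie at genes among the 15 named for high upstream levels, though not the highest of them, and the last 3 at widely used genes with low but nonzero ones: Try4 encodes a trypsin, Serpina3a and Serpina3f protease inhibitors, Rpl27 a ribosomal protein, Psma5 a proteasome subunit and Pold1 the catalytic subunit of DNA polymerase delta.
Try4 (chr6:41302022-41302271, plus strand): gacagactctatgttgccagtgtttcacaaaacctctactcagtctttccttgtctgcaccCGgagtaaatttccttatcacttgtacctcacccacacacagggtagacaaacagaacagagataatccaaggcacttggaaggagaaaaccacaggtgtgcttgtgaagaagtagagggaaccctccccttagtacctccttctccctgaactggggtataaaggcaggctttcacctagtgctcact
Serpina3a (chr12:104112474-104112723, plus strand): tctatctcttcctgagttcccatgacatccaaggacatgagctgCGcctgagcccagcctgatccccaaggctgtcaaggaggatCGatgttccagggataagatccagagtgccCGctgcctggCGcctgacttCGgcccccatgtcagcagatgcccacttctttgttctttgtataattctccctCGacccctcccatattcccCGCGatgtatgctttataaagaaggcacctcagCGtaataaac
Serpina3f (chr12:104214294-104214543, plus strand): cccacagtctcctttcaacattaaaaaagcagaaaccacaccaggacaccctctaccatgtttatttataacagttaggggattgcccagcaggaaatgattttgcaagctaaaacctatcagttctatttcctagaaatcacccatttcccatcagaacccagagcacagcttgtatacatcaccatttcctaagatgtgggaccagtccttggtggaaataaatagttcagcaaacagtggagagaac
Rpl27 (chr11:101441995-101442244, plus strand): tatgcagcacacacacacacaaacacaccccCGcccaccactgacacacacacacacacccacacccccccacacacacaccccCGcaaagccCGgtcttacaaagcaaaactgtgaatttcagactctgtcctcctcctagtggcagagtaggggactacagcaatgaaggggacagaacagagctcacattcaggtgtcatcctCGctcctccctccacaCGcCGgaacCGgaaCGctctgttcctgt
Psma5 (chr3:108256676-108256925, plus strand): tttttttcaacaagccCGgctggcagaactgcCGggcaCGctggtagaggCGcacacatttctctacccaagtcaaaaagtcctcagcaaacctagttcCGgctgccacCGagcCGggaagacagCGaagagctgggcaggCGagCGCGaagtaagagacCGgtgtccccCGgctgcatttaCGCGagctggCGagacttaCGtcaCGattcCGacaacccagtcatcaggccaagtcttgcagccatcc
Pold1 (chr7:44548816-44549065, minus strand): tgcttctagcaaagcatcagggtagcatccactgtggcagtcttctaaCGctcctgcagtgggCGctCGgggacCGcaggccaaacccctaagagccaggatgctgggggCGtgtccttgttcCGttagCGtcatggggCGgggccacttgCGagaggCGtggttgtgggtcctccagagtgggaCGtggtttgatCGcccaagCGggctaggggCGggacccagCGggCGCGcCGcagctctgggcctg

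Upstream of Try4, 26.6 and 18.5 CPM were counted over the 5 kb. Serpina3a had 24.4 and 20.5 CPM, and Serpina3f 24.6 and 17.7 CPM. Both replicates of these 3 genes lay far above those of the other 3, which had 0.135 and 0.391 CPM (Rpl27), 0.338 and 1.49 CPM (Psma5) and 0.338 and 0.782 CPM (Pold1). The 3 high sequences held 1, 9 and 0 CpG and the 3 low ones 8, 19 and 18, against a median of 7 in the 11639 promoter sequences matched. These genes were shown because of their levels, and the CpG counts describe them alone. Low-count differences between replicates, as at Psma5, are large in relative terms.

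At the median of all genes the 3 regions carried similar densities. The median upstream level was 0.378 and 0.485 CPM per kb, the median gene body level 0.445 and 0.547, and the median downstream level 0.419 and 0.516. Gene bodies held 83.63% and 82.64% of all counts, the upstream windows 7.86% and 8.43% and the downstream windows 8.51% and 8.93%. Summed lengths were 1023.7 Mb for gene bodies and 135.9 Mb for each window class. Over these summed lengths gene bodies were denser, at 0.817 and 0.807 CPM per kb. Upstream windows had 0.578 and 0.62 and downstream windows 0.626 and 0.657. Replicate 1 had lower medians and a higher 99th percentile than replicate 2 in each region: for gene bodies that percentile was 3.99 against 3.4, and the 1% of genes with the most gene body counts held 22.5% against 20.5%. The replicates ranked genes alike, with Pearson's r across genes of 0.939 upstream, 0.929 over gene bodies and 0.946 downstream (log2 scale, 27179 genes, which are not independent replicates), and 80.3% of the top 10% of genes upstream in replicate 1 were in the top 10% of replicate 2.

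Many of the zeros went with overlapping annotation. Bases covered by the same region class of a second gene occurred upstream in 21.1% of the genes with a position, in the body in 24.2% and downstream in 26.1%. Where all upstream bases were shared, 92.2% and 93.1% of windows had no count, against 1.61% and 1.56% of windows with no shared base. Gene bodies that were shared whole had no count in 82.1% and 81.4%. A level of 0 in such a region is not read here as absent acetylation, and levels per unshared kb are given below where they differ.

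Genes that define blood cells carried about as much gene body signal as genes that define other organs, and both stood above widely used genes. Over the genes of 6 blood lists the median gene body level was 0.896 and 1.05 CPM per kb, and 102 of them lay above the median of all genes while 21 did not. For 55 genes of liver, brain, heart, stroma and endothelium it was 0.944 and 0.942, with 48 above that median. For 444 genes of 7 lists that most cells use (ribosome, mitochondrial ribosome, oxidative phosphorylation, proteasome, DNA replication, splicing and translation) it was 0.229 and 0.34, with 84 above. The widely used genes thus stood at 0.256 and 0.324 of the blood genes, and the blood genes at 0.949 and 1.11 of the other organs' genes, so that the order of the last pair differed between replicates. Upstream widely used genes were again lowest, where the medians were 0.797 and 0.938 for blood genes, 0.729 and 0.75 for genes of other organs and 0.216 and 0.328 for widely used genes. Downstream blood genes were below those of other organs in both replicates, with 0.608 and 0.75 against 0.797 and 0.829, and widely used genes had 0.189 and 0.297. The groups also differ in makeup. Their median ratio of observed to expected CpG around the start was 0.83 for widely used genes and 0.27 for both other groups. Median lengths were 7.85 kb for widely used genes, 16.7 kb for blood genes and 25.7 kb for genes of other organs. Whether the contrast holds among genes of like length and CpG content was not tested.

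**Figure D1:**
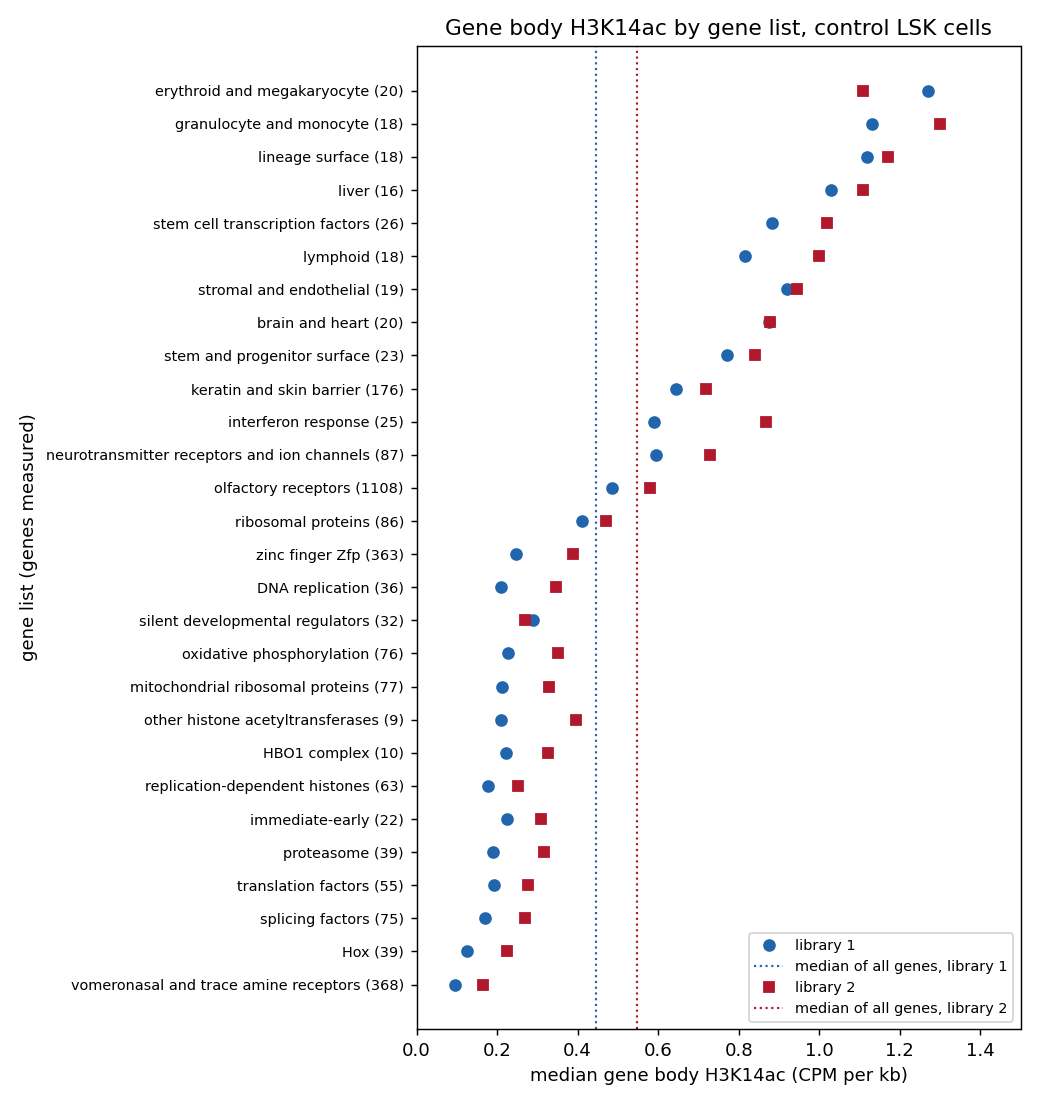
Median gene body H3K14ac in CPM per kb (x axis) for each gene list with a median above 0 (y axis, genes measured in brackets), with circles for replicate 1, squares for replicate 2 and dotted lines at the median of all genes in each. Blood and other organ lists lie to the right of both lines, between 0.772 and 1.3, and the proteasome, translation and splicing lists lie to the left, between 0.171 and 0.316.

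Among stem cell transcription factors, 23 of 26 gene bodies lay above the median of all genes, with a list median of 0.884 and 1.02. Prdm16, a factor needed for stem cell maintenance, had the highest gene body level of the list with 2.27 and 1.8, followed by Hlf, a factor typical of stem cells, with 1.57 and 1.55, and Etv6 with 1.46 and 1.44. Mecom, another stem cell regulator, had 1.36 and 1.35 over its body. Bmi1, a Polycomb component of the same list, was lowest with 0.0702 and 0.195. The list therefore spans levels from well below to well above the typical gene.

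The markers of the sort lay above the median of all gene bodies, as did most markers of cells the sort removes. Ly6a (Sca-1) had 2.85 and 3.32 CPM per kb over its body, Kit had 1.1 and 1.26, and Cd34, a progenitor surface protein, had 1.13 and 1.17. All 12 LSK markers lay above the median of all gene bodies, with medians of 1.01 and 1.1. So did 10 of 11 markers of mature lineages, with medians of 1.17 and 1.22: Ly6g of granulocytes had 2.88 and 3.43, and Cd8a of T cells 2.32 and 1.81. Ms4a1 (CD20), the remaining marker, was at 0 over a body that is shared whole and had 1.34 and 1.34 upstream. Stromal and endothelial markers had medians of 1.05 and 1.02, and markers from outside the blood 0.956 and 1.03, among them Alb (albumin) with 1.07 and 1.03 and Myh6 (cardiac myosin) with 1.58 and 1.52. Gene body levels alone did not separate LSK markers from the others. Downstream the LSK markers had the highest median of the 4 sets, 1.08 and 1.27 against 0.567 and 0.891 for mature lineages, 0.878 and 0.954 for stroma and endothelium and 0.621 and 0.547 outside the blood, and upstream the lineage markers had it, with 1.24 and 1.34 against 0.79 and 0.852 for LSK markers. These sets are small and their differences were not tested, and whether other cells were present was not tested.

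Genes of granule proteins, platelets and red cells had list medians above 1. In the granulocyte and monocyte list, with 1.13 and 1.3, S100a8 (a calcium-binding protein of neutrophils) had 5.74 and 3.57 over a body under 1 kb, Ctsg (cathepsin G) 2.08 and 2.61 and Mpo (myeloperoxidase) 1.85 and 1.59. The erythroid and megakaryocyte list had 1.27 and 1.11, with Gp9, a platelet receptor subunit, at 2.66 and 2.55, and Ank1, the red cell ankyrin, at 2 and 1.68. The list was uneven: 7 of its 20 bodies were not above the median of all genes, and 2 had no count, among them that of the globin gene Hbb-bs, which shares no base in the annotation used. In the lymphoid list, with 0.816 and 1, Zap70 (a T cell kinase) had 1.98 and 1.89, and Tcf7, a T cell factor, 1.77 and 1.59.

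Lists of other organs held genes with levels of the same size. Sparc, a matrix protein, had 2.21 and 1.84 over its body and Cdh5, the endothelial cadherin, 2.07 and 1.65. Ahsg, a liver plasma protein, had 1.56 and 1.44, and Apob, the main protein of low-density lipoprotein, 1.51 and 1.33. Tnnt2, cardiac troponin T, had 1.62 and 1.66.

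Most widely used genes were not above the median of all gene bodies, and 84 of 444 were. The proteasome list had gene body medians of 0.189 and 0.316, with 5 of 39 genes above the median of all genes, and the highest was Psmb11, the thymus-specific subunit, with 1.4 and 1.77. Splicing factors had 0.171 and 0.27 (5 of 75 above), translation factors 0.193 and 0.278 (7 of 55), DNA replication genes 0.211 and 0.346 (2 of 36) and oxidative phosphorylation genes 0.226 and 0.351 (15 of 76). Cytosolic ribosomal protein genes were nearer the typical gene over their bodies, at 0.412 and 0.471 (37 of 86 above), but low in both windows, at 0.155 and 0.281 upstream and 0.149 and 0.234 downstream. Per unshared kb their upstream median was 0.262 and 0.388 (78 of the 86 genes). Replication-dependent histone genes had upstream medians of 0.0405 and 0.0469 over 63 genes. Per unshared kb the medians were 0.149 and 0.292, over the 43 genes with at least 500 unshared bp.

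Genes of the acetylation machinery were low to middling. The 10 genes of HBO1 complexes had a gene body median of 0.222 and 0.326. Kat7, which encodes HBO1 and is the gene the study mutates, had 0.702 and 0.766 upstream, 0.547 and 0.619 over its body and 0.662 and 0.688 downstream. No difference between its 3 regions passed the test (smallest of the 3 adjusted p-values 0.133, edgeR). Jade1, a scaffold subunit, was the highest of the complex with 1.36 and 1.17 over its body, and Jade3, on the X chromosome, the lowest with 0.0953 and 0.203. Among 9 other acetyltransferase genes Kat6b had 1.02 and 1.19 and Ep300 0.125 and 0.208.

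Developmental regulators that are mostly silent in blood, and the Hox clusters, were also low. The former had gene body medians of 0.29 and 0.27, with 3 of 32 genes above the median of all genes, and Tbx5 was highest with 0.941 and 0.891. Hox genes had 0.125 and 0.224, with Hoxb1 at 0.487 and 0.971 and Hoxa9, a factor of stem and progenitor cells, at 0.509 and 0.518. Vomeronasal and trace amine receptors had 0.0945 and 0.165, the lowest list median above 0. Olfactory receptors differed from these: over bodies of 0.945 kb at the median they had 0.485 and 0.579, while their windows had 0.216 and 0.25 upstream. Of 1108 receptors 242 (21.8%) were in the top 10% of all gene bodies, near the 20.4% of all genes under 1 kb. Per unshared kb their body median was 0.434 and 0.504, below that of all genes with 0.484 and 0.579. Olfr643 had 8 and 6.2 over its body and 1.01 and 1.06 upstream. Whether reads that reach over the ends of such short bodies add to their densities was not tested.

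Interferon response genes were above the typical gene in these poly(I:C)-treated mice, for which no untreated library was used. Their gene body median was 0.59 and 0.867 CPM per kb, with 20 of 25 genes above the median of all genes. A level above the typical gene was not particular to this list, as genes of other organs had 0.944 and 0.942. Whether the treatment had a part in it was not tested. Ifitm3, an antiviral membrane protein, had 1.87 and 3.25, and Ifit3 1.51 and 1.95. Mx1, an antiviral GTPase, had 4.83 and 4.85 upstream, 1.95 and 1.94 over its body and 0.702 and 0.672 downstream. Upstream exceeded the body by 1.32 ± 0.13 (SE, derived from the F statistic of the test) on the log2 scale (adjusted p = 7.7e-09, edgeR). Mx1-cre is driven by the Mx1 promoter, and counts from the gene's own promoter and from the transgene's copy cannot be told apart.

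The highest upstream levels belonged to immunoglobulin constant regions and to a few other genes. Ighm, which encodes the IgM heavy chain, had 16 and 9.99 CPM per kb in the 5 kb upstream of the gene (the gene itself spans chr12:113418826-113422730, minus strand), against 2.78 and 2.36 over its body and 2.59 and 2.16 downstream. Ighe had 15.4 and 10.4 upstream and Igha 10.4 and 8.16. The interval before Ighm is known to hold the heavy chain intronic enhancer and a switch region, and switch regions, which lie before the other constant genes as well, are repetitive. Of the 15 named genes with the highest upstream levels, Ighg2c, Ighg3 and Ighg1 also belong to this locus, with 7.01 and 5.11, 6.91 and 3.88, and 5.5 and 4.3. Tmem125 reached 10.8 and 8.36 upstream, Agbl1 5.87 and 3.63, and Aplnr, the apelin receptor, 5.13 and 3.49.

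Gene bodies of at least 1 kb peaked at Mroh2a (chr1:88226991-88262289, plus strand) with 13.8 and 10.3 CPM per kb. Hjurp, a centromere chaperone gene whose downstream window runs into the Mroh2a body, had 15.4 and 9.9 downstream and 2.6 and 2.68 over its own body. Serpina3i had 5.66 and 4.02 and Serpina3f 4.72 and 3.88, both in the Serpina3 cluster of chromosome 12. Nkg7, a granule protein of killer cells, had 5.84 and 3.67, and F2rl3, a thrombin receptor, 5.32 and 3.31. Among bodies of at least 20 kb the next after Mroh2a were Sfi1 with 4.05 and 2.96, Camk1g with 3.72 and 2.79 and Itgb2l with 3.35 and 2.87. The 10 lowest bodies of at least 20 kb all had no count in either replicate, and 9 of them, such as Angpt2 and Angptl2, were shared whole with a second gene and had windows of 1.9 and 2.03 (Angpt2) and 1.51 and 1.5 (Angptl2) upstream. Arhgap1 was the exception, with no count over its body and no shared base there in the annotation used.

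Taken over all lengths, genes with starts poor in CpG carried more signal than those with CpG-rich starts, but not among the longest genes. With the ratio of observed to expected CpG around the start under 0.25 (8427 genes), the median gene body level was 0.662 and 0.709 and the median upstream level 0.527 and 0.578. With a ratio of at least 0.75 (6548 genes), the body had 0.323 and 0.452 and the upstream window 0.284 and 0.406. The CpG-rich genes thus stood at 0.488 and 0.638 of the CpG-poor ones over bodies and at 0.539 and 0.702 upstream. Downstream the ratio was nearer 1, at 0.765 and 0.94. Among genes with no other annotated gene in either window the contrast was smaller upstream, with log2 ratios to the median of all such genes of 0.028 for CpG-poor and -0.258 for CpG-rich starts, and downstream its order turned (-0.362 and 0.087). Within genes of 10 to 30 kb the body medians fell in the same order, from 0.698 and 0.746 in the lowest CpG class over 0.606 and 0.717 and 0.359 and 0.504 to 0.262 and 0.396 in the highest. In genes of 100 to 200 kb the CpG-rich ones (ratio at least 0.75) had body medians of 0.848 and 0.924 and those with a ratio under 0.5 had 0.934 and 0.923, and over 200 kb the order turned, with 1.08 and 1.06 against 0.89 and 0.841. Levels were also highest at middling GC content, with body medians of 0.681 and 0.803 at 46 to under 50% GC against 0.179 and 0.212 under 38% and 0.331 and 0.432 at 54% or more, and the part of GC content in the CpG order was not tested.

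**Figure D2:**
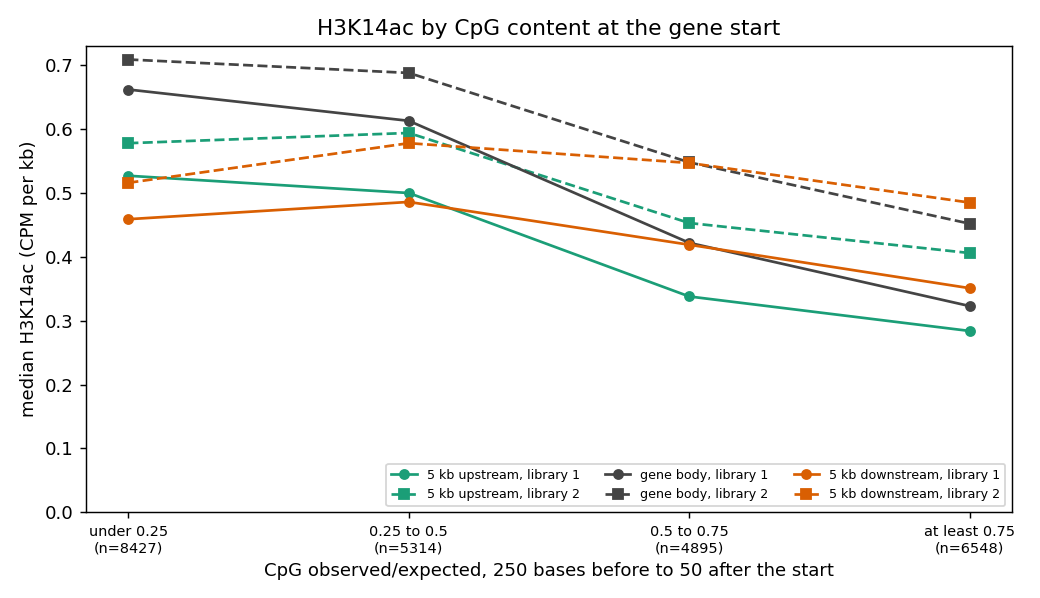
Median H3K14ac in CPM per kb (y axis) by the ratio of observed to expected CpG around the gene start (x axis), for upstream windows, gene bodies and downstream windows, with circles and solid lines for replicate 1 and squares and dashed lines for replicate 2. Upstream and body medians are higher in the 2 CpG-poor classes, and downstream medians vary least.

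Long genes carried more signal per kb than short ones, more so over their bodies and downstream than upstream. From genes under 1 kb to genes over 200 kb the body median went from 0.221 and 0.329 to 0.954 and 0.938, and the downstream median from 0.189 and 0.234 to 0.878 and 0.86. Upstream it went from 0.203 and 0.25 to 0.473 and 0.5, and genes of 3 to 10 kb were already at 0.392 and 0.5. Per unshared kb the genes under 1 kb had 0.358 and 0.416 over the body (1755 of the 3571 genes). Downstream they had 0.304 and 0.36 (2765 genes) and upstream 0.324 and 0.375 (2771 genes). The contrast with length was smaller in all 3 regions on this scale. Regions with fewer than 500 unshared bp are left out of it, among them all bodies shorter than that. The smaller contrast thus rests in part on a different set of short genes, and whether it holds for the same genes was not tested. Of 919 genes over 200 kb tested, 539 (58.7%) were lower upstream than over the body and 105 (11.4%) higher, beside 34.1% and 22.1% of all genes tested (edgeR, adjusted p under 0.05). The contrast was steepest in the 260 genes over 200 kb with CpG-rich starts, which had 0.378 and 0.453 upstream and 1.08 and 1.06 over the body, and of which 198 of 259 tested were lower upstream. Mllt3, a stem cell regulator of 263 kb, was such a long gene, with 0.257 and 0.344 upstream, 1.4 and 1.38 over its body and 2.93 and 2.34 downstream.

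**Figure D3:**
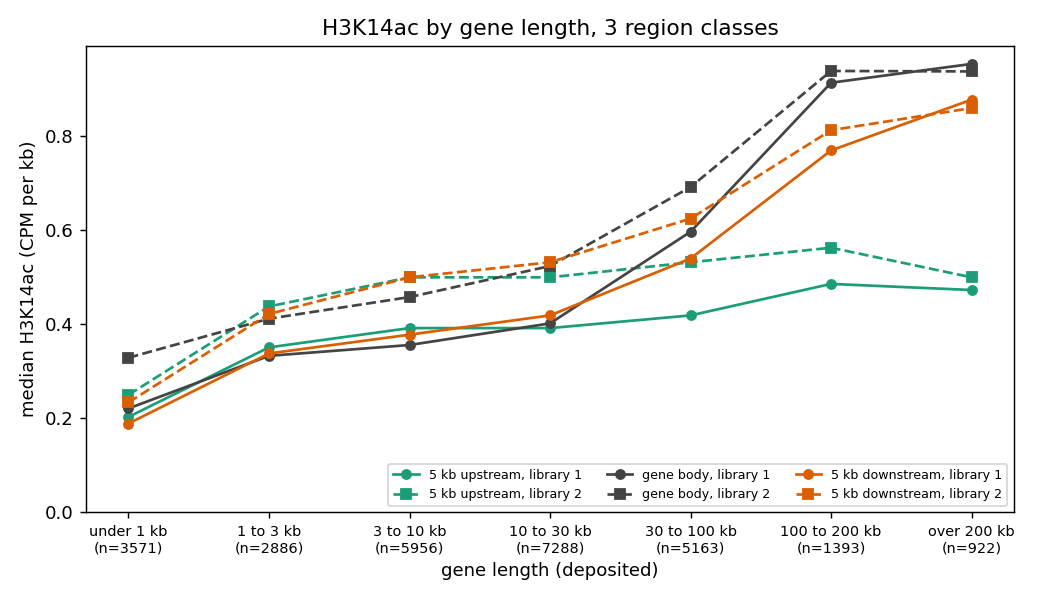
Median H3K14ac in CPM per kb (y axis) by deposited gene length (x axis) for the 3 regions, with circles and solid lines for replicate 1 and squares and dashed lines for replicate 2. Body and downstream medians climb to between 0.86 and 0.954 in genes over 200 kb, and upstream medians lie at 0.473 and 0.5 there, up from 0.203 and 0.25 in genes under 1 kb.

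Chromosomes differed, with the X chromosome lowest of those with a median above 0. The X chromosome had a gene body median of 0.212 and 0.234 over 1169 genes, against 0.497 and 0.601 over 23975 autosomal genes, a ratio of 0.427 and 0.389. Upstream the ratio was 0.518 and 0.438 and downstream 0.455 and 0.4. Male cells hold a single X chromosome. Y-linked genes were lower still: Uty, a histone demethylase relative, had 0.0768 and 0.11 over its body, Kdm5d, a demethylase, 0.0513 and 0.09, and Zfy1 0.0318 and 0.0336. Chromosomes 1 and 6 had the highest autosomal medians, 0.716 and 0.736 and 0.719 and 0.732. The 15 mitochondrial genes had 3.23 and 2.04, although mitochondrial DNA carries no histones, so these counts are not acetylated nucleosomes.

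**Figure D4:**
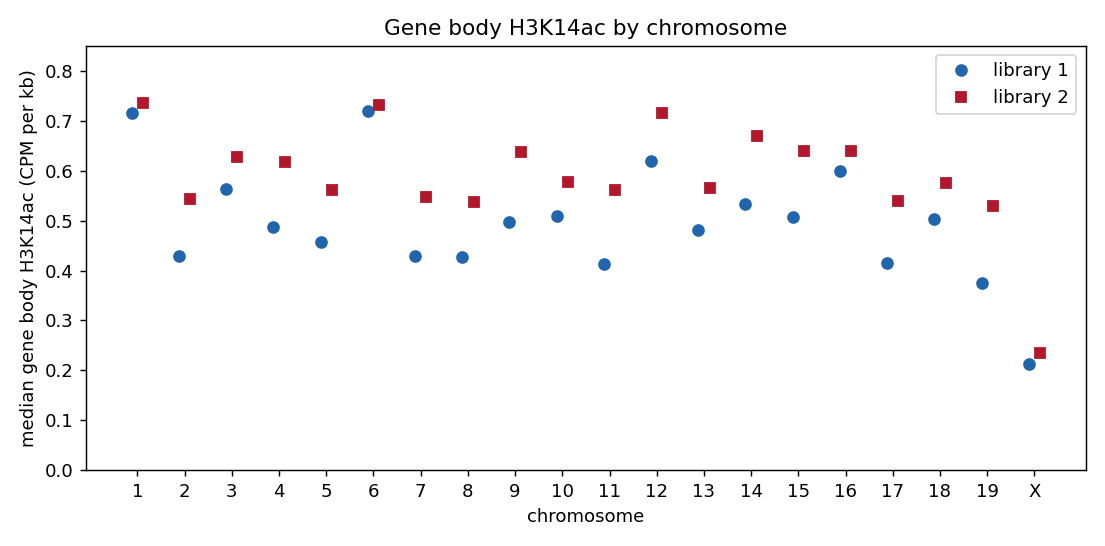
Median gene body H3K14ac in CPM per kb (y axis) on each chromosome (x axis), with circles for replicate 1 and squares for replicate 2. The X chromosome lies at 0.212 and 0.234, below every autosome in both replicates.

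Noncoding genes were not alike once shared bases were set aside. Per unshared kb upstream, small nucleolar RNA genes had medians of 0.161 and 0.234 and small nuclear RNA genes 0.214 and 0.297. Both lay below all genes, with 0.432 and 0.532, while long noncoding RNA and microRNA genes lay above. Genes of long noncoding RNAs (2077) had upstream medians of 0.716 and 0.766 and downstream medians of 0.729 and 0.813, above those of protein-coding genes with 0.378 and 0.485 and 0.405 and 0.516. Over bodies they had 0.558 and 0.616 against 0.477 and 0.583. Per unshared kb they had 0.762 and 0.811 (1683 genes) against 0.464 and 0.567 (20303 of 20983 protein-coding genes). MicroRNA genes had upstream medians of 0.149 and 0.219. Per unshared kb the medians were 0.546 and 0.641, over the 420 of 641 genes with at least 500 unshared bp. Of the 641, 445 had no count over their bodies of under 1 kb. Apart from noncoding genes, immunoglobulin and T cell receptor V segments had 1.5 and 1.57 over their bodies, J segments 4.11 and 3.91 and D segments 13.8 and 10.7. D segments are 0.017 kb long at the median, so their densities rest on few bases.

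The regions of a gene tended to be high or low together, and so did neighbouring genes. Over the 11964 genes without shared bases, Spearman's rho across genes was 0.75 and 0.72 between upstream window and body, 0.74 and 0.72 between body and downstream window, and 0.66 and 0.65 between both windows. Over all genes it was 0.56 and 0.53, 0.53 and 0.5, and 0.56 and 0.53. Between gene bodies next to each other it was 0.38 in both replicates (14830 pairs), and it was 0.26 for bodies 2 genes apart and 0.04 for bodies 20 genes apart. These values describe genes of the same libraries, which share depth and base composition.

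For single genes, the regions were compared with edgeR's quasi-likelihood test, with the library as a block and p-values adjusted by Benjamini-Hochberg over all genes tested. Upstream windows were higher than downstream windows in 6563 of 23926 genes (27.4%) and lower in 7403 (30.9%). Against the density of the gene body, upstream windows were higher in 5312 of 24079 genes (22.1%) and lower in 8202 (34.1%), and downstream windows higher in 6395 of 23949 (26.7%) and lower in 7431 (31%). The balance of higher and lower depends on the scale: with each region class scaled to its own total, 7378 genes were higher and 6939 lower upstream than downstream, 7757 genes were higher and 6058 lower upstream than over the body, and 7938 higher and 6252 lower downstream than over the body. TMM factors likewise gave more higher than lower calls in the 3 comparisons, with 7220 and 7087, 7344 and 6472, and 7351 and 6475. With library totals as the scale, 39.3% of the calls between upstream and body were higher upstream, and with region totals 56.1%. That scaling moved the median of all genes from -0.18 to 0.12 for upstream against body. Single genes are therefore described by direction below only where differences lie well above this shift. Calls within gene lists are counted below on library totals with no fold limit, and their balance on the other scales was not examined.

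The largest fitted differences were set by regions with no count. All 60 places among the named genes with the largest differences had a lower region at 0 in both replicates, and in 45 of these at least 95% of its bases were shared. Genes with no other annotated gene in either window, no shared base in the body and at least 10 counts in every value were therefore described instead, a choice made after their values were seen.

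In several of these the upstream window stood above the downstream window, the body or both. Ftcd, a liver enzyme of histidine breakdown, had 2.57 and 2.11 upstream and 0.203 and 0.203 downstream, a difference of 3.52 ± 0.25 (SE) on the log2 scale (adjusted p = 8.5e-10, edgeR). Pstpip1, a cytoskeletal adaptor of blood cells, had 1.5 and 1.95 upstream and 0.162 and 0.172 downstream. Trf, which encodes transferrin, had 1.43 and 1.8 upstream, 0.52 and 0.701 over its body and 0.162 and 0.234 downstream. In these genes the replicates of the regions did not overlap, which their choice by large differences in the same libraries made nearly certain. Cxcr2, a chemokine receptor of neutrophils, had 3.85 and 2.55 upstream, 0.307 and 0.183 over its body and 2 and 1.99 downstream, so that its body lay below both windows (upstream against body 3.7 ± 0.21 on the log2 scale, adjusted p = 1.8e-13, edgeR). Bgn, a matrix proteoglycan on the X chromosome, had 2.21 and 1.8 upstream and 0.17 and 0.172 over its body. Sf3b1, a core splicing factor, had 0.675 and 1 upstream and 0.118 and 0.176 over its body.

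In others the downstream window stood above the upstream window. Cdkn1a, which encodes the cell cycle inhibitor p21, had 6.39 and 8.04 in the 5 kb downstream of the gene (the gene itself spans chr17:29090979-29100722, plus strand), 0.554 and 0.735 upstream and 0.61 and 0.803 over its body. The log2 difference, upstream minus downstream, was -3.48 ± 0.14 (SE) (adjusted p = 1.4e-12, edgeR), while the difference between upstream and body did not pass the test (-0.13 ± 0.22, adjusted p = 0.623, edgeR). Tac1, a neuropeptide precursor, had 5.48 and 2.94 downstream and 0.473 and 0.297 upstream. Dysf, a membrane repair protein of muscle, had 3.65 and 3.13 downstream and 0.297 and 0.25 upstream. Tal1, a factor needed for blood formation, had 2.84 and 1.77 downstream against 0.891 and 0.735 upstream, a difference of -1.49 ± 0.19 (adjusted p = 1.3e-06, edgeR), and Gata2, its partner in stem cells, 1.22 and 1.72 against 0.662 and 0.829.

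Bodies stood above their upstream windows at Slc24a4, an ion exchanger, with 3.09 and 2.46 against 0.405 and 0.36, and at Kif26b, a kinesin, with 2.38 and 2.07 against 0.176 and 0.375. Kit had 1.1 and 1.26 over its body against 0.324 and 0.703 upstream (upstream against body -1.24 ± 0.22, adjusted p = 3.5e-05, edgeR). Mecom and Hlf were likewise lower upstream than over the body, with log2 differences of -1.69 ± 0.23 (adjusted p = 9.4e-07) and -1.04 ± 0.18 (adjusted p = 3.5e-05, both edgeR). Slamf1 (CD150), a stem cell surface protein, had 2.42 and 1.74 upstream and 1.73 and 1.69 over its body, a difference that did not pass the test (adjusted p = 0.124, edgeR).

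**Figure D5:**
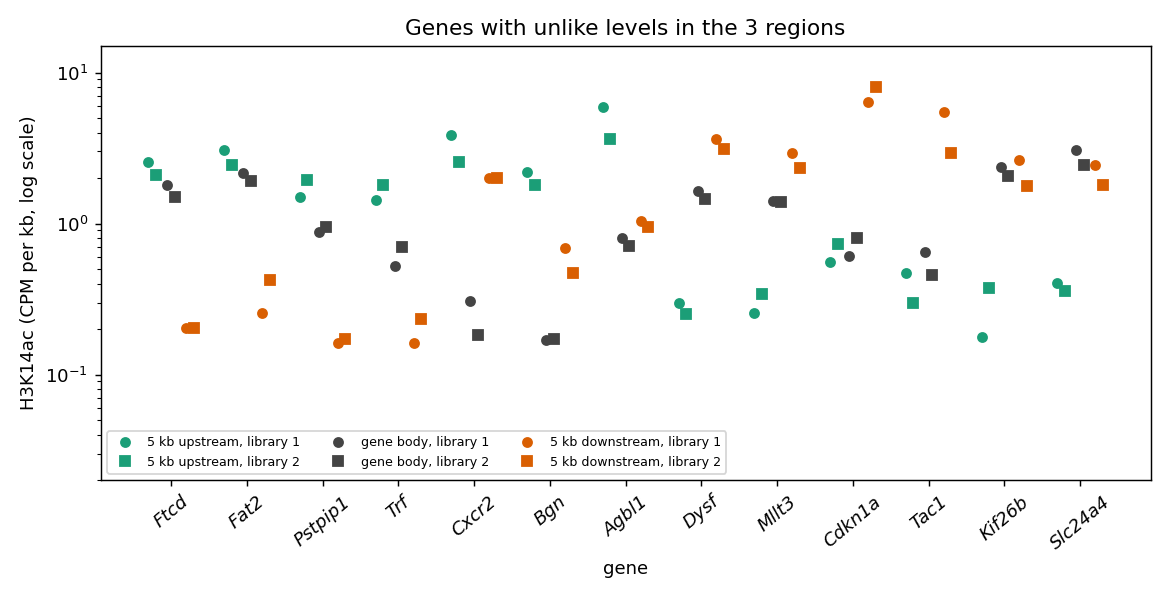
H3K14ac in CPM per kb (y axis, log scale) upstream, over the body and downstream of 13 genes (x axis), with circles for replicate 1 and squares for replicate 2, chosen after their values were seen. Ftcd, Fat2, Pstpip1 and Trf are lowest downstream, Cxcr2 and Bgn lowest over the body, and Cdkn1a and Tac1 highest downstream.

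Gene lists differed in how their regions compared. Immediate-early genes, which respond within minutes to signals, were higher upstream than over the body in 13 of 21 tested (61.9%, beside 22.1% of all genes) and lower in 2, with medians of 0.446 and 0.703 upstream and 0.225 and 0.31 over the body. Leaving out 3 genes with no body count, such as Socs3, 10 of 18 were higher and 2 lower. Per unshared kb those medians were 0.513 and 0.703 and 0.182 and 0.281. Silent developmental regulators were higher downstream than over the body in 16 of 30 (14 of 28 without the 2 with no body count) and lower in 0, where 26.7% of all genes were higher. Splicing factor genes were higher upstream than over the body in 29 of 74 and lower in 6. Ribosomal protein genes went the other way, with 6 of 75 higher and 39 lower upstream (34.1% of all genes were lower), and so did olfactory receptors with 15 of 668 higher and 400 lower. For stem and progenitor surface genes 11 of 23 were higher upstream than downstream and 3 lower, beside 27.4% and 30.9% of all genes. Whether these lists differ from other genes of like length and CpG content was not tested.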

How the data were processed

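H3K14ac CUT&Tag counts of the 2 control libraries were analysed, and the knockout and HBO1 libraries were not used. The deposited values are whole-number counts of reads per Entrez gene and region class, and the deposited gene body length is in bp, per the file headers. The submitters' processing notes name featureCounts and mm10, while how reads were aligned, filtered or assigned where genes overlap, and which annotation release was used, is not given in the sources used here. Tables of the whole series matched the files of each library, with 0 values differing.

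Symbols and positions came from RefSeq GRCm38.p6 by Entrez identifier: 25275 genes had a symbol, 25184 a position, and 1904 had no symbol. For 88.1% of these, deposited and annotated lengths lay within 20% of each other. CPM are counts scaled to 1000000 for a library's total over the 3 region classes, divided by the deposited length or by 5 kb. Unshared levels divide by the bases that no second gene covers in the same region class (at least 500 bp left). The ratio of observed to expected CpG was read from the genome over 250 bases before to 50 after the start. GC content was read over the whole region, that is the gene body or the 5 kb window.

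Regions were compared with edgeR 4.0.16 (R 4.3.3; glmQLFit, glmQLFTest), with the library as a block because the regions are counted in the same library, with library total and region length as offset, after filterByExpr, at an adjusted p of 0.05 (Benjamini-Hochberg). With 2 libraries a gene has little residual information of its own, and the spread is shared over genes. The SE printed with a log2 difference is the size of that difference divided by the square root of the test's F statistic. Such an SE restates the test result and is not a separate estimate of error. Data were also simulated from the mean levels of these counts, with a fixed spread that was not estimated from the 2 libraries. Changes were put into 200 genes above a minimum expected count, and all other genes had equal density in both regions. Of genes changed 2-fold, 30.5% were recovered for upstream against downstream, 73% for upstream against body and 66.5% for downstream against body. Of those changed 4-fold, 98.5% to 99.5% were recovered. These rates hold for that setting and do not give the power of the tests on the real counts. The alternatives were DESeq2 1.42.0, other scalings and filters, fits without the block, genes with no other annotated gene in either window, and unshared bases as length.

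Named genes were the 15 highest upstream, the 15 highest over bodies of at least 1 kb, the 10 highest and lowest over bodies of at least 20 kb, the 10 highest downstream, the 10 largest differences in each direction of each comparison, the top 3 and the lowest gene of each list, Kat7, the markers and 5 Y-linked genes. Predicted and unnamed genes were left out. The members and lists were chosen with earlier results of these data known. Python 3.11.15, pandas 2.3.3, numpy 2.4.6 and matplotlib 3.10.9 were used.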

Additional observations from a re-analysis of the deposited data

How the results depend on the processing

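Without the replicate block, which leaves the library out of the model, the number of genes higher upstream than over the body fell from 5312 to 3459, and DESeq2 gave 3238. Every other count of calls without the block or with DESeq2 stayed within 1.5 times. Asking for a mean count of at least 50 left 2453 genes higher and 3566 lower for upstream against downstream, 2961 higher for upstream against body, and 4082 higher and 4943 lower for downstream against body. Keeping only genes with no other annotated gene in either window left fewer genes to test, with 1621 higher and 2441 lower, 1222 higher and 2772 lower, and 1715 higher and 2140 lower in the 3 comparisons. With unshared bases as length, an alternative chosen after seeing the data, 4834 genes were lower and 6111 higher downstream than over the body, so that the balance turned. Calls with 1 library left out could not be tested, because no residual degree of freedom is left.

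With each library alone the median log2 ratio was 0 for upstream against downstream (mean of both -0.017), -0.143 to -0.113 for upstream against body and -0.057 to -0.033 for downstream against body. Counts past 2-fold stayed within 1.5 times. Without the 1% of genes with the most counts per region class, the upstream share was 9.49%, the body share 80.3% and the downstream share 10.21%.

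Of 661 alternative values of list, class and gene levels, 434 stayed within the spread of the 2 libraries. Of these, 95 had replicate 1 and 81 had replicate 2 left out, and such values set the spread themselves. A further 125 came from scaling each region class to its own total, which nearly cancels in a ratio within the same region class. In these settings staying within the spread was thus largely fixed in advance. In all, 210 values moved past the spread without changing sign, 69 of these among 107 values with no other annotated gene in either window. There the log2 ratio of the gene body median to that of all genes went from 1.11 to 0.306 for liver genes and from -0.756 to -1.478 for DNA replication genes. The ratio changed sign in 17 cases. With no other annotated gene in either window it became -0.033 for lymphoid genes upstream, -0.528 for olfactory receptor bodies, -0.149 upstream and -0.205 over bodies for neurotransmitter receptors and ion channels, -0.208 for keratin and skin barrier genes upstream, 0.739 upstream and 0.024 downstream for microRNA genes, and, downstream, -0.362 for the lowest and 0.087 for the highest CpG class. With unshared bases it was -0.189 for olfactory receptor bodies, 0.252 for microRNA genes upstream and -0.005 for genes of 10 to 30 kb upstream, and with annotated length -0.043 for olfactory receptor bodies. With 1 replicate left out it ranged from -0.023 to 0.313 for lymphoid, from -0.09 to 0.112 for keratin and skin barrier and from -0.096 to 0.204 for immediate-early genes downstream, and from -0.075 to 0.005 for bodies of the class of 0.5 to 0.75 CpG. The cause of these changes was not tested.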
